A study of Homo sapiens with 32 samples.

Results

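The comparison described here is that of PP242-treated with vehicle-treated MCF10A cells in normoxia, measured in mRNA bound to polysomes. PP242 is an ATP-competitive small-molecule inhibitor of mTOR that acts on both of its complexes. MCF10A is an immortalised, non-tumourigenic line of breast epithelium, and it was grown with EGF, hydrocortisone, cholera toxin and insulin in serum-containing medium. The groups were normoxia (N) and normoxia with 2.5 µM PP242 for 3 hours (NPP), with 2 replicates each. These 4 polysomal (P) libraries were chosen by their labels from the 32 RNA-Seq libraries of the series. PP242 was dissolved in DMSO, and per the study's methods controls received an equal amount of DMSO alone. For comparison, the report uses the total mRNA (T) of the same 2 treatments, polysomal mRNA of MCF10A kept for 24 hours in hypoxia (0.5% O2) without (H) or with PP242 (HPP), and polysomal mRNA of MDA-MB-231, a triple-negative breast cancer line, in N and NPP. Each of these groups also has 2 libraries. Polysomal mRNA is the part of the cytoplasmic mRNA that sediments with several ribosomes in a sucrose gradient.

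The N libraries held 35834206 and 46032327 counts and the NPP libraries 38070041 and 38899022. Between 98.96% and 99.18% of these counts fell on protein-coding genes. Of the 19815 protein-coding genes in the files, 13124 passed the filter on low counts and were tested. Levels are given in CPM, the counts divided by the TMM-scaled library size, and differences as the log2 fold change (log2FC) of NPP against N. Calls required an adjusted p below 0.05 in edgeR's quasi-likelihood test with Benjamini-Hochberg adjustment over all tested genes. Because each library is scaled to its own total, a log2FC gives the place of an mRNA among all polysomal mRNAs. A loss of polysomes as a whole would not be visible. With 2 replicates a side an exact two-sided permutation test of a single gene cannot go below p = 0.333, so p-values rest on the spread pooled over groups and genes. In these bulk lysates, fewer cells with an mRNA and less of it per cell cannot be told apart.

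mTOR complex 1 promotes translation by phosphorylating the 4E-BP repressors of the cap-binding factor eIF4E and by acting on LARP1, which binds mRNAs that start with a terminal oligopyrimidine (TOP) tract. A TOP tract is a C at the first transcribed base followed by a run of C and T. It is found on nearly all mRNAs of ribosomal proteins and on several translation factors, and these mRNAs leave polysomes when mTOR is blocked. mTOR complex 2 activates AKT, which keeps FOXO transcription factors out of the nucleus, so FOXO target genes are known to respond to loss of mTOR and PI3K signalling. The ID proteins bind basic helix-loop-helix factors and block them, and their genes are direct targets of BMP and SMAD signalling.

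The start sequences of genes on both sides of this distinction are shown first. Each window covers 10 bases before and 20 bases from the RefSeq start of the gene (GRCh38.p14), in the direction of transcription, with the C that opens the transcript and the unbroken C and T run after it in capitals. The first 4 genes were chosen to show a TOP tract, which RPL32 and YBX1, described below, lack at their RefSeq start. The last 2, ID2 and SMAD6, are among the largest decreases described below and start with an A, in capitals.
RPL12, chr9:127451387-127451416, minus strand: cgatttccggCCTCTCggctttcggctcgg
RPL26, chr17:8383174-8383203, minus strand: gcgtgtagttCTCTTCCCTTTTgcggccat
RPS18, chr6:33272065-33272094, plus strand: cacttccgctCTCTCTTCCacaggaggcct
TPT1, chr13:45341164-45341193, minus strand: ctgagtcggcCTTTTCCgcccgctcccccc
ID2, chr2:8682046-8682075, plus strand: ctcgggcttcAttctgagccgagcccggtg
SMAD6, chr15:66702226-66702255, plus strand: ctagactggcAtatgatgggaggcagccaa
A start with a C and at least 4 further C or T was then counted on the canonical transcript of GENCODE v44, which was found for all members of the sets named here. It was present in 60 of 79 ribosomal protein mRNAs (75.9%) and in 25 of 32 other mRNAs listed as TOP (78.1%). Among the genes called higher, 0 of 62 had it, and among those called lower 1 of 46 (2.17%). Over the tested genes with a transcript the share was 5.43%. At RefSeq starts it was present in 43 of the 63 ribosomal protein and 17 of the 23 other TOP genes matched to an entry. The entry taken for EIF3A, counted as lacking it, lies on chromosome 20 and is likely that of another gene with that alias. Outside these lists, the 625 tested genes whose canonical transcript had it had a median polysomal log2FC of −0.16, with 61.6% negative. The 12332 with another start had a median of −0.02, with 51.6% negative.

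Ribosomal protein mRNAs stood lower in NPP polysomes. All 79 members of the list, 47 of the large and 32 of the small subunit, had a negative log2FC, with a median of −1.84, which is 3.58-fold lower, and a range from −2.94 to −0.47. The median over all tested genes was −0.04. In 78 of 79 genes both NPP libraries lay below both N libraries, whereas this held for 22.1% of all tested genes. Together these mRNAs took 14.5% and 8.996% of the protein-coding counts in the N libraries and 3.81% and 4.08% in the NPP libraries. In this fit none of the 79 passed the adjusted threshold of 0.05. The smallest adjusted p was 0.0623, and 17 of 79 were under 0.10, a threshold that 2.42% of all tested genes passed. A fit that also took the replicate number within each fraction into account called 60 of 79, and 666 genes in all.

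RPL12, a protein of the ribosomal stalk base, stood at 1548 and 649 CPM in N and at 137 and 149 CPM in NPP. Its log2FC of −2.94 (SE 0.66, adjusted p 0.0629) was the lowest of the list. The 2 N libraries differed from each other by more than the 2 NPP libraries did, and the groups did not overlap. RPL32 stood at 2236 and 901 CPM in N and at 241 and 235 CPM in NPP (log2FC −2.72, SE 0.62, adjusted p 0.0676). Of the small subunit, RPS18 had 3661 and 1350 CPM in N and 371 and 408 CPM in NPP (log2FC −2.69, SE 0.67, adjusted p 0.0852), and RPS15A 1738 and 722 CPM against 249 and 236 CPM (log2FC −2.34, SE 0.60, adjusted p 0.0941). The same order of libraries returned in each of these genes, with N replicate 1 highest, N replicate 2 next and both NPP libraries close together. Many ribosomal protein genes have processed pseudogenes with near-identical sequence, so the division of reads among copies is uncertain.

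The plot of ribosomal protein levels by library shows this pattern for the whole list. The median of their log2 CPM was 11.01 and 9.91 in the N libraries and 8.72 and 8.67 in the NPP libraries. Taken library by library, on log2(CPM + 0.5), the median difference of NPP from N replicate 1 was −2.31 for NPP replicate 1 and −2.30 for NPP replicate 2. From N replicate 2 it was −1.18 and −1.16. Left out in turn, N replicate 1 gave a median log2FC of −1.19 and N replicate 2 one of −2.30.

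**Figure D1:**
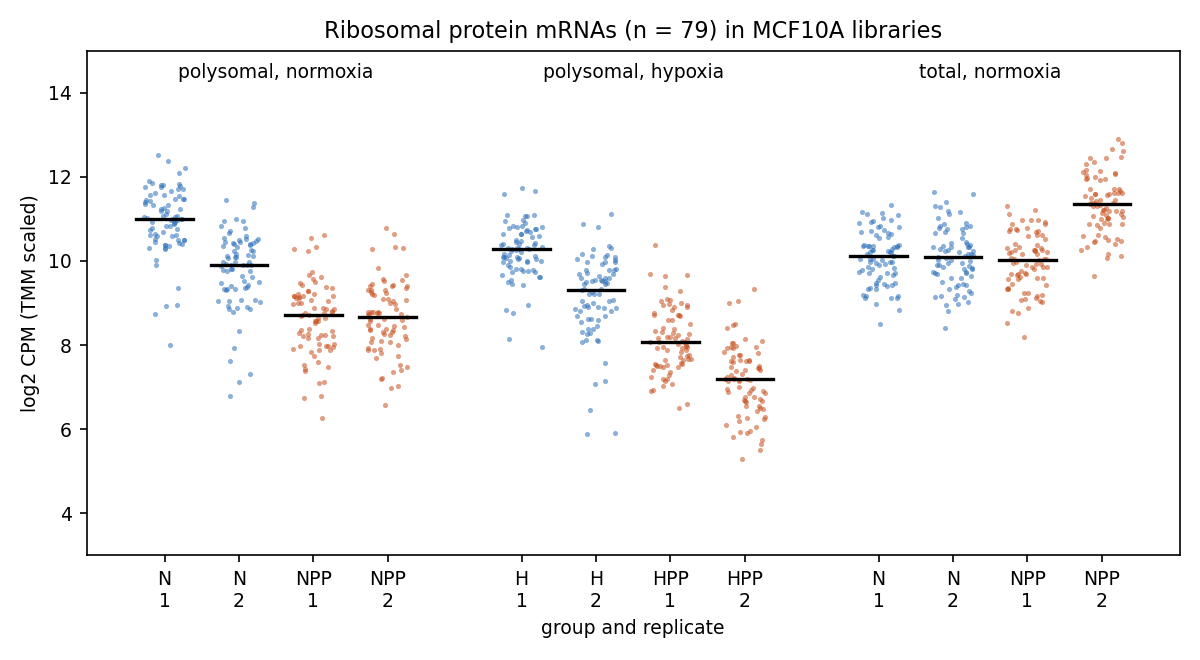
Each point is 1 of 79 ribosomal protein mRNAs, on the log2 CPM scale after TMM scaling, in each MCF10A library named on the x axis. Black lines are medians. In polysomal mRNA the NPP medians (8.72 and 8.67) lie below the N medians (11.01 and 9.91). In total mRNA NPP replicate 2 (11.36) stands apart from the other 3 libraries (10.03 to 10.11).

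The difference between the 2 N polysomal libraries went with transcript length. Ribosomal protein transcripts are short, with a median coding length of 453 bases in the canonical transcript against 1398 bases for all tested genes. Leaving out the ribosomal protein and other TOP mRNAs, the tested genes were split into 5 groups of about equal size by transcript length. In the shortest group (up to 1805 bases) N polysomal replicate 1 exceeded replicate 2 by a median of 0.69 (log2 of CPM + 0.5), and in the longest group (5768 bases and over) it lay below it by a median of −0.56. The NPP polysomal replicates differed by medians of 0.00 and 0.03 in the same 2 groups of genes. The log2FC of NPP against N had a median of −0.20 in the shortest and 0.04 in the longest group. The first of these turned with the N library, since library by library the shortest group had medians of −0.48 and −0.45 against N replicate 1 and 0.20 and 0.20 against N replicate 2. Ribosomal protein mRNAs lay below other short mRNAs. Among the 1443 other genes with transcripts no longer than 1350 bases, the upper quartile of the ribosomal protein list, the median log2FC was −0.29 and the lowest decile was −0.94. When a curve fitted to transcript length was taken out of every library as an offset, 59 ribosomal protein and 12 other TOP mRNAs were called, and 750 genes in all, and the ribosomal protein median was −1.52. DESeq2 called 53 ribosomal protein and 9 other TOP mRNAs, and 665 genes in all.

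**Figure D2:**
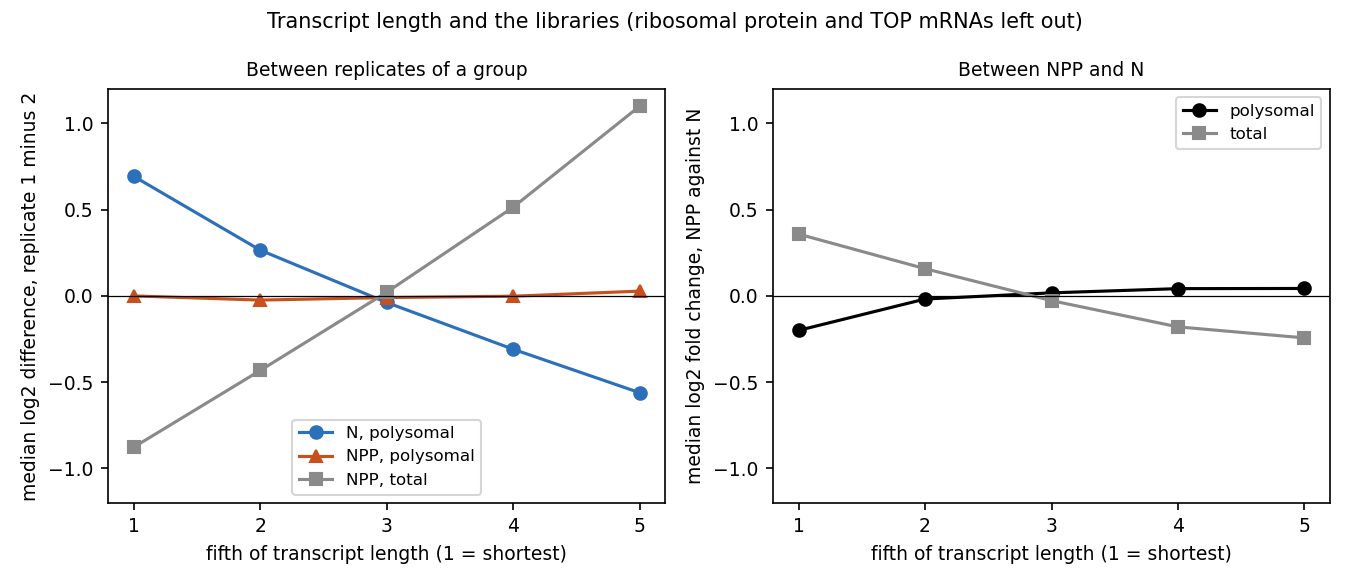
Left, median log2 difference between replicate 1 and replicate 2 of a group, by group of transcript length (5 groups of equal size, 1 the shortest), for N polysomal, NPP polysomal and NPP total libraries of MCF10A. Right, median log2FC of NPP against N in polysomal and total mRNA. The N polysomal replicates run from 0.69 to −0.56 and the NPP total replicates from −0.88 to 1.10, while the NPP polysomal replicates stay near 0.

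The 32 other TOP mRNAs, which code mostly for translation factors, had a median log2FC of −0.90, or 1.86-fold lower. In 28 of 32 both NPP libraries lay below both N libraries, against 22.1% of all tested genes. The edgeR fit described in the opening, with TMM scaling and no block or offset, called none of the 32. TPT1, the growth-linked protein TCTP, stood at 2593 and 1178 CPM in N and 352 and 407 CPM in NPP (log2FC −2.31, SE 0.60, adjusted p 0.0997). YBX1, an mRNA-binding cold shock domain protein, stood at 1538 and 793 CPM against 319 and 286 CPM (log2FC −1.94, SE 0.45, adjusted p 0.0734). Neither group pair overlapped. The 28 initiation factors outside the TOP list had a median log2FC of −0.14 and no call. The largest differences among them were those of the translational repressors EIF4EBP1 (log2FC −1.10, SE 0.68, adjusted p 0.558) and EIF4EBP2 (log2FC −1.08, SE 0.40, adjusted p 0.248). Of 38 ribosome biogenesis genes 1 fell, RRS1, an assembly factor of the large subunit, from 96.9 and 61.2 CPM in N to 21.6 and 18.01 CPM in NPP (log2FC −2.00, SE 0.27, adjusted p 0.00681). The median of that list was −0.29, and 0.351% of all tested genes were called lower.

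Mitochondrial proteins encoded in the nucleus had small negative medians and no call. The median log2FC was −0.25 for 61 mitochondrial ribosomal proteins and −0.38 for 72 subunits of the respiratory chain. MRPL36 (log2FC −1.68, SE 0.47, adjusted p 0.122) and MRPL34 (log2FC −1.36, SE 0.57, adjusted p 0.319) had the largest differences of the first list. ATP5G2, which codes for the c subunit of ATP synthase, went from 976 and 453 CPM to 254 and 246 CPM (log2FC −1.52, adjusted p 0.209). UQCRB of complex III had 665 and 314 CPM in N and 190 and 193 CPM in NPP (log2FC −1.35, adjusted p 0.201). As with ribosomal proteins, N replicate 1 stood highest in each of these genes. The 13 mRNAs made inside mitochondria, which are translated on other ribosomes, had a median of −0.25, from MT-ND1 at −0.67 to MT-ND5 at 0.60, and 0 of 13 were called. They held 0.906% and 0.756% of protein-coding counts in N and 0.630% and 1.12% in NPP, against 5.31% to 7.94% in the 4 normoxic total libraries.

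Over all 13124 genes, 0.823% were called, 62 higher (0.472%) and 46 lower (0.351%), and 1752 had an unadjusted p under 0.05. Scaled by library totals alone, 81 were called higher and 37 lower. All 62 lay higher in both NPP libraries than in both N libraries and all 46 lower in both, which follows from choosing them by their test on these libraries. Over all tested genes 24.2% lay higher in both. Each called gene differed by at least 2-fold, with a median log2FC of 1.92 for the increases and −1.98 for the decreases. Of the called genes, 5 had a mean under 1 CPM over the 4 libraries. The number of calls depended on each library. It was 20 without N replicate 1, 19 without N replicate 2, 15 without NPP replicate 1 and 8 without NPP replicate 2. Decreases outnumbered increases without either N library, with 5 increases and 15 decreases without N replicate 1 and 2 and 17 without N replicate 2. All called genes kept their sign in these 4 fits, 78 were called in none of them, and 5 were called in each, namely TXNIP, HBP1, DLX2, SMAD6 and AEN. The kept signs are no test of stability. The N and NPP levels of each called gene were already apart, so leaving out 1 library could not reverse their order. A fit to the 4 libraries alone called 97 genes, of which 56 were among those called here and 11 were ribosomal protein genes.

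**Figure D3:**
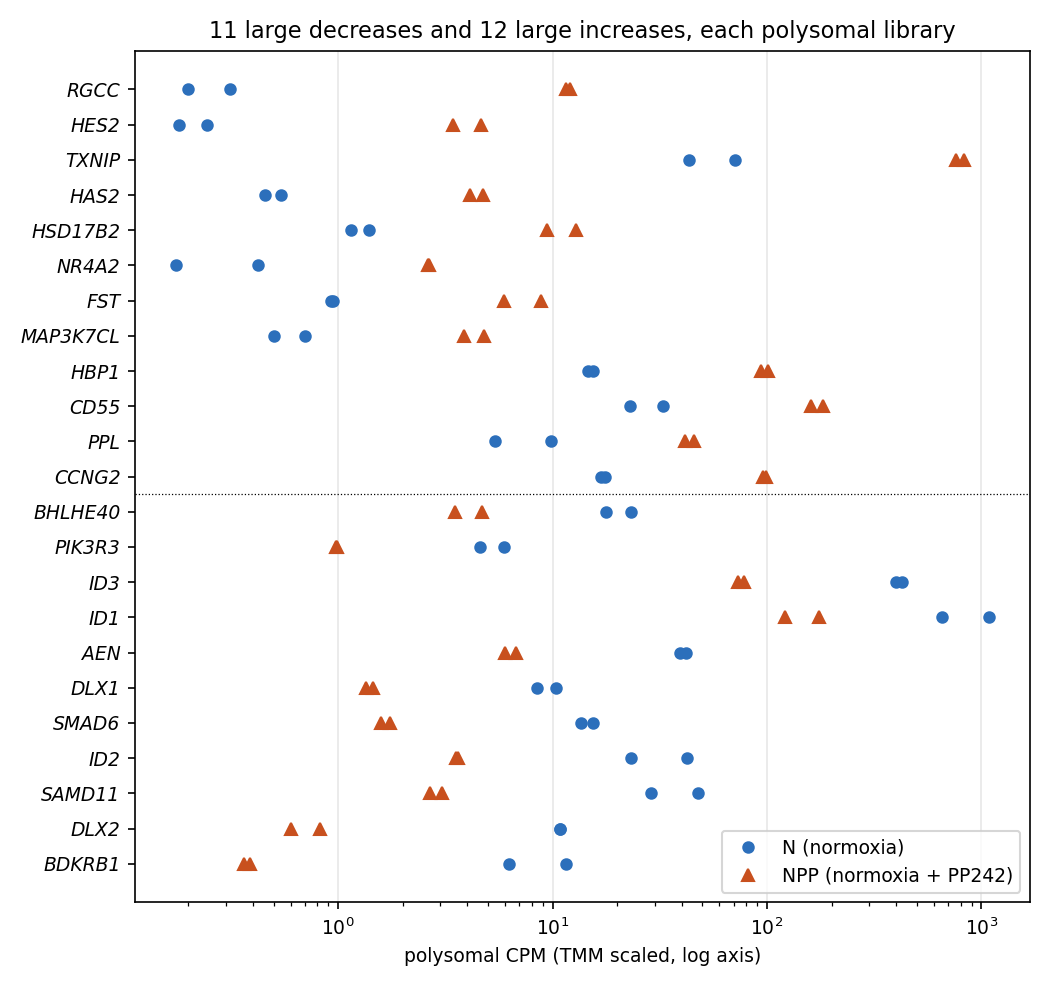
CPM (TMM scaled, log axis) in each of the 4 polysomal libraries for 12 increases and 11 decreases, the largest among called genes with a mean of at least 1 CPM, with 1 gene not shown. Circles are N and triangles NPP. In each row the 2 triangles lie on the same side of both circles, as the choice of genes requires.

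The increases included genes known as FOXO targets. Of 29 tested genes of the FOXO list 5 rose, against 0.472% of all tested genes, none fell, and the list median was 0.64. The list was chosen with earlier results of these data known, so this share does not test it. TXNIP, which binds thioredoxin and restrains glucose uptake, rose from 43.2 and 70.7 CPM in N to 827 and 763 CPM in NPP (log2FC 3.80, SE 0.41, adjusted p 0.00246). CCNG2, an atypical cyclin linked to cell cycle exit, rose from 17.5 and 16.9 CPM to 99.04 and 95.5 CPM (log2FC 2.50, SE 0.47, adjusted p 0.0312). The transcriptional repressor BCL6 had 3.91 and 6.83 CPM in N and 21.1 and 20.0 CPM in NPP (log2FC 1.93, SE 0.35, adjusted p 0.0291). The pseudokinase TRIB1 had 1.96 and 2.61 CPM against 10.0 and 8.35 CPM (log2FC 2.00, SE 0.37, adjusted p 0.0291). The remaining call was CITED2, a coactivator partner of CBP and p300 (log2FC 2.31, adjusted p 0.0315). HBP1, an HMG-box repressor of cell cycle genes that is not in the list, had the smallest adjusted p of the increases. It rose from 14.6 and 15.5 CPM to 101.4 and 93.5 CPM (log2FC 2.69, SE 0.23, adjusted p 0.00057). In all 6 genes both NPP libraries lay above both N libraries, as in all 62 called increases, which follows from choosing them by their test.

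The RefSeq promoters (250 bases before to 50 bases after the start, GRCh38.p14) of TXNIP and HBP1 hold the letters of the forkhead core, searched as TGTTTAC on either strand, here read as GTAAACA and shown in capitals in windows of 30 bases.
TXNIP, chr1:145996685-145996714, minus strand: tcgggctcctgGTAAACAaggaccgggcag
HBP1, chr7:107168819-107168848, plus strand: catcttctccaGTAAACAcaacacaaaagt
The motif begins at base −124 from the start in TXNIP and at base −173 in HBP1. It was present in 3.41% of all 27305 RefSeq promoters. It was not found in these windows of CCNG2, CITED2 or BCL6 where an entry was present. Of the 62 genes called higher 44 had an entry (71.0%), and the motif was present in 4 of these (9.09%). It was present in 0 of the 36 genes called lower with an entry, and in 2.34% of tested genes with an entry. This difference was not tested, and genes without an entry could not be counted. A match describes the letters and not a binding site.

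Among genes with a mean of at least 1 CPM, the largest 2 increases were in genes with low levels in N. RGCC (chr13:41457550-41470871), a regulator of cell cycle progression, rose from 0.314 and 0.200 CPM to 11.6 and 12.1 CPM (log2FC 5.55, SE 0.65, adjusted p 0.00298). HES2, a repressor of the HES family, rose from 0.244 and 0.180 CPM to 3.44 and 4.66 CPM (log2FC 4.26, SE 0.56, adjusted p 0.00547). After TXNIP came HAS2, a hyaluronan synthase (log2FC 3.14, adjusted p 0.0131), HSD17B2, which oxidises oestradiol (log2FC 3.13, adjusted p 0.0194), and NR4A2, an orphan nuclear receptor (log2FC 3.08, adjusted p 0.0291). FST, the activin antagonist follistatin, had a log2FC of 2.98, and MAP3K7CL one of 2.86. CD55, which protects cells from complement, rose from 32.7 and 23.0 CPM to 161 and 182 CPM (log2FC 2.63, SE 0.31, adjusted p 0.00298). PPL, the desmosomal linker periplakin, rose from 5.41 and 9.84 CPM to 41.6 and 45.5 CPM (log2FC 2.51, SE 0.44, adjusted p 0.0245).

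The largest decreases included genes of the ID family and of BMP signalling. Of 26 tested members of that list 8 fell, against 0.351% of all tested genes, and none rose. The members were chosen with earlier results of these data known, so this share is not a test of the list. The median log2FC was −0.76, and in 17 both NPP libraries lay below both N libraries, as in 22.1% of all tested genes. ID1 (chr20:31605289-31606510) fell from 1086 and 655 CPM in N to 122 and 174 CPM in NPP (log2FC −2.56, SE 0.47, adjusted p 0.0291). ID2 fell from 42.5 and 23.3 CPM to 3.62 and 3.55 CPM (log2FC −3.20, SE 0.37, adjusted p 0.00298). ID3 (chr1:23557926-23559501) fell from 425 and 398 CPM to 73.5 and 78.3 CPM (log2FC −2.44, SE 0.38, adjusted p 0.0168). In each of the 3 genes both NPP libraries lay below both N libraries, as in all 46 called decreases, which follows from that choice. The inhibitory SMADs, which damp BMP and TGF-β receptors and are induced by them, fell too. SMAD6 went from 13.5 and 15.5 CPM to 1.58 and 1.74 CPM (log2FC −3.13, SE 0.25, adjusted p 0.00057), and SMAD7 from 14.003 and 16.2 CPM to 3.96 and 3.98 CPM (log2FC −1.93, SE 0.26, adjusted p 0.006). The homeobox genes DLX2 (chr2:172099438-172102900, log2FC −3.92, SE 0.36, adjusted p 0.000654) and DLX1 (chr2:172085507-172089674, log2FC −2.75, SE 0.31, adjusted p 0.00278), which lie side by side on chromosome 2, and NOG, the secreted BMP antagonist noggin (log2FC −1.89, adjusted p 0.0291), complete the 8.

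Other large decreases were in unrelated genes. BDKRB1, the bradykinin B1 receptor, fell from 11.6 and 6.25 CPM to 0.362 and 0.386 CPM (log2FC −4.56, SE 0.61, adjusted p 0.006). SAMD11 fell from 47.7 and 28.7 CPM to 2.69 and 3.04 CPM (log2FC −3.73, SE 0.45, adjusted p 0.00311). AEN (chr15:88621340-88632281), a nuclease that p53 induces, fell from 39.3 and 41.9 CPM to 6.77 and 5.99 CPM (log2FC −2.67, SE 0.24, adjusted p 0.00057). PIK3R3, a regulatory subunit of PI3K, had a log2FC of −2.42, and BHLHE40, a repressor of the circadian clock, one of −2.33.

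Of all tested genes 0.472% were called higher. Among the growth signalling lists, 4 of 33 immediate early and ERK feedback genes rose and none fell, with a list median of 0.71. They were the ERK phosphatases DUSP5 (log2FC 1.596, adjusted p 0.04) and DUSP6 (log2FC 1.34, adjusted p 0.0474), the receptor signalling inhibitor SPRY2 (log2FC 1.42, adjusted p 0.0292) and MYC. MYC stood at 174 and 205 CPM in N and 605 and 487 CPM in NPP (log2FC 1.53, SE 0.29, adjusted p 0.032). It was the 1 called gene of 11 in the MYC network, whose median was 0.02. Of 38 genes of the mTOR complexes and their upstream brakes 1 rose, RRAGC, which codes for a Rag GTPase that brings mTOR complex 1 to lysosomes, from 34.5 and 40.2 CPM to 73.1 and 93.4 CPM (log2FC 1.16, SE 0.21, adjusted p 0.0291). Of 20 receptor tyrosine kinases and adaptors 1 rose, the adaptor GRB7, from 2.93 and 5.07 CPM to 23.7 and 21.7 CPM (log2FC 2.50, SE 0.39, adjusted p 0.0168).

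Of 39 genes of the ATF4 pathway and amino acid supply 2 rose, against 0.472% of all tested genes. PPP1R15A, which brings a phosphatase to eIF2α, went from 34.1 and 22.4 CPM to 90.1 and 125 CPM (log2FC 1.93, SE 0.31, adjusted p 0.0177), and the secreted glycoprotein STC2 from 89.3 and 113 CPM to 261 and 271 CPM (log2FC 1.39, SE 0.25, adjusted p 0.0291). STC2 is also in the list of 31 hypoxia targets, where NDRG1 (log2FC 2.09, adjusted p 0.0232) and the glucose transporter SLC2A3 (log2FC 1.55, adjusted p 0.0246) rose as well. The median of that list was 0.01. Of 49 lysosome and autophagy genes 1 rose, the ATG8 family member GABARAPL1, from 5.69 and 7.74 CPM to 19.2 and 27.8 CPM (log2FC 1.80, SE 0.31, adjusted p 0.0232). Of 16 inflammatory cytokines 1 rose, CXCL8, from 3.95 and 2.53 CPM to 14.9 and 15.4 CPM (log2FC 2.23, SE 0.33, adjusted p 0.0131). None of 37 sterol and fatty acid synthesis genes was called, and their median was 0.17. The 25 interferon response genes had a median of −0.02 and no call, with STAT2 at 1.22 and DDX58 at 1.11.

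Of the cell cycle lists, 1 held a called gene, and 0.351% of all tested genes were called lower. Of 39 DNA replication genes 1 fell, CDC6, which loads the replicative helicase, from 105.98 and 101.3 CPM to 52.6 and 41.2 CPM (log2FC −1.14, SE 0.20, adjusted p 0.0245). The 35 mitosis genes had a median log2FC of 0.50, with 31 positive and none called. TOP2A stood at 146 and 257 CPM in N and 749 and 575 CPM in NPP (log2FC 1.72, SE 0.64, adjusted p 0.252), and CENPE had a log2FC of 1.55 (SE 0.95, adjusted p 0.553). None of 18 G1 cyclins and CDK inhibitors was called. CCND1, the cyclin of early G1, stood at 150 and 255 CPM in N and 80.7 and 62.8 CPM in NPP (log2FC −1.50, SE 0.42, adjusted p 0.123), and E2F2 at 5.69 and 9.96 CPM against 2.51 and 2.51 CPM (log2FC −1.64, SE 0.38, adjusted p 0.0737). The 35 TGF-β and integrin genes had a median of 0.49 and no call. CTGF stood at 194 and 223 CPM in N and 1038 and 726 CPM in NPP (log2FC 2.08, SE 0.49, adjusted p 0.0737), and FN1, fibronectin, at 1057 and 1484 CPM against 5070 and 2879 CPM (log2FC 1.65, SE 0.48, adjusted p 0.134). Replication-dependent histone mRNAs mostly lack a poly(A) tail. Of 39 that passed the filter of 63 listed, none was called, and their median of 0.02 rests on low counts, as in HIST1H2AD (0 and 0.0401 CPM in N, 0 and 0 in NPP) and HIST2H4B (0 and 1.36 CPM against 3.88 and 3.21 CPM).

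**Figure D4:**
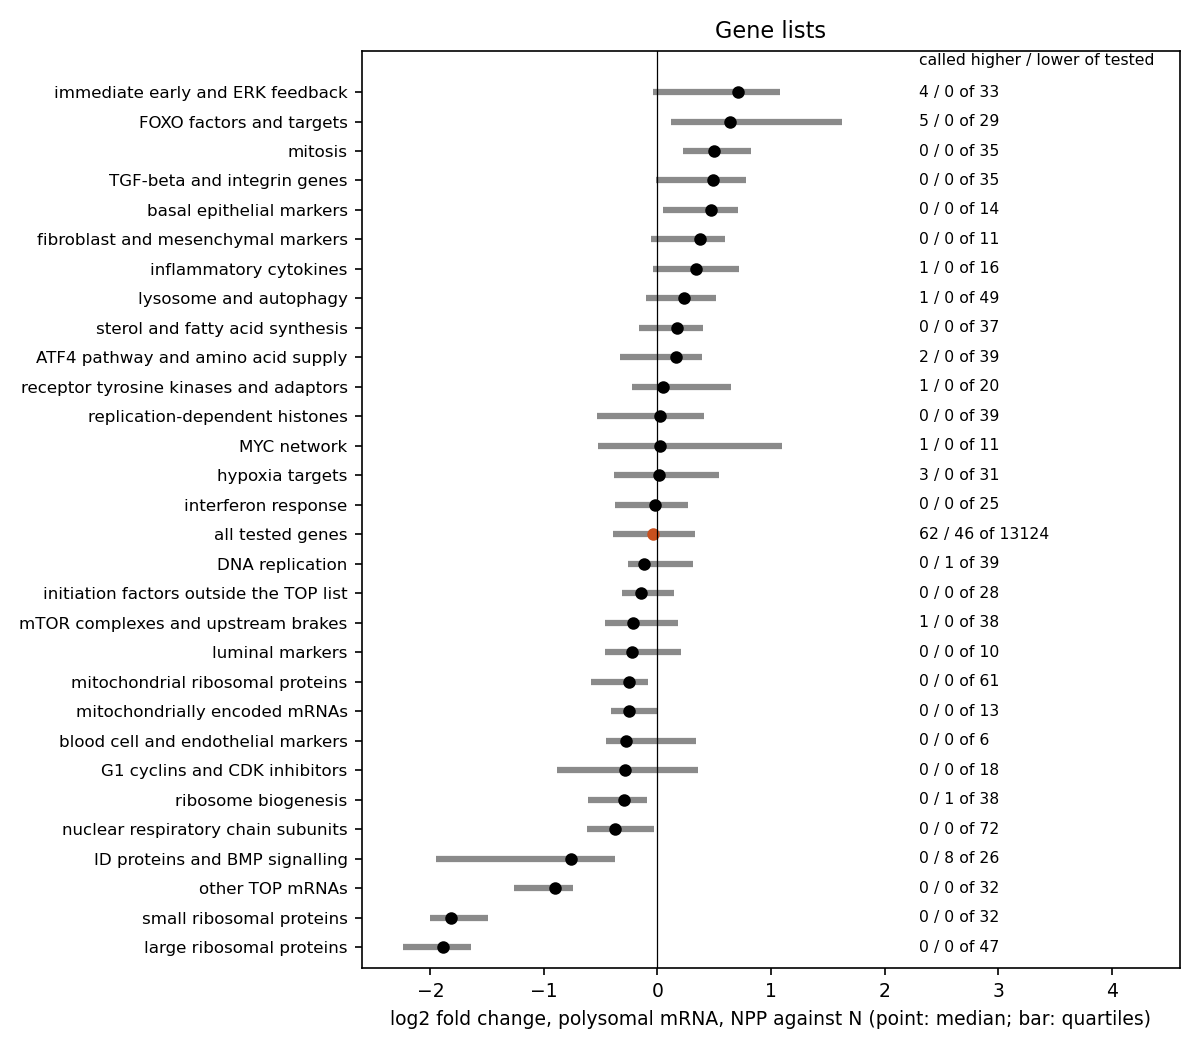
Median (point) and quartiles (bar) of the log2FC of NPP against N in polysomal mRNA for each of 29 gene lists and for all tested genes (orange point, −0.04). Numbers on the right are the genes called higher and lower of those tested. Both ribosomal protein lists lie lowest, at −1.89 and −1.82, with no call, and the 8 calls of the ID and BMP list are all decreases.

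Levels of cell type markers were summed in each library. The 15 basal epithelial markers summed to 8940 and 5006 CPM in N and 8599 and 6476 CPM in NPP, with S100A2 the most abundant and 2 under 1 CPM. The 15 luminal markers, with KRT7 the most abundant, summed to 15210 and 7449 CPM in N and 9596 and 8216 CPM in NPP. KRT7 alone averaged 9442 CPM over the 4 libraries, and 8 of 15 luminal markers were under 1 CPM with 2 at 0. Fibroblast and mesenchymal markers summed to 5543 and 5168 CPM against 9459 and 6273 CPM, with FN1 the most abundant and 5 of 15 under 1 CPM. Blood cell and endothelial markers summed to 71.0 and 46.7 CPM against 43.5 and 42.9 CPM, with CD68 the most abundant at a mean of 43.3 CPM, 13 of 15 under 1 CPM and 7 at 0. No marker of the 4 lists was called, and the part of these levels in the differences between N and NPP was not tested. LAMB3 (log2FC 1.32, adjusted p 0.0719) and DSG3 (log2FC 1.74, adjusted p 0.483) had the largest differences among basal, CD24 (log2FC −1.49, adjusted p 0.124) and XBP1 (log2FC −0.72, adjusted p 0.219) among luminal, FN1 and POSTN (log2FC 1.02, adjusted p 0.274) among mesenchymal, and KDR (log2FC 0.85) and CSF1R (log2FC −0.75) among blood and endothelial markers.

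The total mRNA libraries show whether a polysomal difference was also present in the mRNA pool. In total mRNA 85 of 13124 genes (0.648%) were called, 45 higher and 40 lower. All 62 polysomal increases were positive in total mRNA, where 51.5% of all tested genes were, and 45 of 46 decreases were negative, against 48.4%. The titles give polysomal and total libraries shared sample numbers, so these values need not be independent. Of these genes 35 and 26 were also called there. The decrease that was not negative in total mRNA was CHP1, a calcium-binding partner of sodium-proton exchangers, with a log2FC of −1.41 in polysomal and 0.08 in total mRNA. The median log2FC was 1.69 for the increases and −1.76 for the decreases. ID1 had −2.56 in polysomal and −2.12 in total mRNA, SMAD6 −3.13 and −3.07, TXNIP 3.80 and 3.01, and HBP1 2.69 and 2.35. Ribosomal protein mRNAs behaved otherwise. Their median log2FC in total mRNA was 0.74, and all 79 were positive. This value rested on NPP total replicate 2, in which they made up 17.8% of protein-coding counts against 9.97% in replicate 1 and 10.3% and 10.7% in N. Against the 2 N total libraries, on log2(CPM + 0.5), their median difference was −0.08 and −0.09 for NPP total replicate 1 and 1.27 and 1.27 for replicate 2.

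The difference between the polysomal and the total log2FC was tested in the same fit. Its median was −2.601 for ribosomal proteins, −1.62 for the other TOP mRNAs, 0.01 for the ID and BMP list and −0.01 over all tested genes. With the length offset the ribosomal protein median was −1.89. Without the offset, the values by library above show that the total mRNA part of the −2.601 rested on NPP total replicate 2. The offset median was not tested without that library. No gene passed the adjusted threshold in edgeR, with 296 at an unadjusted p under 0.05. That fit did not pair polysomal and total libraries by their shared sample numbers, and a fit paired in this way was not run. The 4 genes with the smallest unadjusted p were RPL21 (difference −3.03), RPL26 (−3.18), RPL12 (−3.76) and RPL32 (−3.53), each with an adjusted p of 0.99. DESeq2 called 94 genes, 93 of them lower in polysomal than in total mRNA, with 65 ribosomal protein and 18 other TOP mRNAs among them. The length offset gave 36 calls, all lower, with 33 ribosomal protein mRNAs. NPP total replicate 2 also differed from replicate 1 by transcript length, with medians of −0.88 for replicate 1 minus replicate 2 in the shortest group of genes and 1.10 in the longest.

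Polysomal mRNA of hypoxic MCF10A cells, in 4 other libraries, received the same drug. The hypoxic and normoxic log2FC come from different libraries, but both tests use the spread estimated over all 16 MCF10A libraries, so their calls are not independent. Fitted on its own 4 libraries the hypoxic comparison called 38 genes. In hypoxia 853 of 13124 genes (6.5%) were called. Of the 62 normoxic increases 61 were positive there, against 49.4% of all tested genes, and 53 called. Of the 46 decreases all were negative, against 50.6%, and 39 called, with none called in the opposite direction. Their median log2FC was 1.90 and −2.00. HBP1 had 14.6 and 20.2 CPM in H and 104.4 and 134 CPM in HPP (log2FC 2.77, adjusted p 0.000203), and ID2 had 96.4 and 67.3 CPM against 4.44 and 4.22 CPM (log2FC −4.24, adjusted p 0.000282). Ribosomal protein mRNAs had a median of −2.15 and 43 of 79 fell, and the other TOP mRNAs had a median of −1.22 with 9 of 32 falling. The difference of the PP242 effect between normoxia and hypoxia passed the adjusted threshold in no gene in edgeR, with 356 at an unadjusted p under 0.05, and DESeq2 called 19. The smallest p-values belonged to GJB2, connexin 26, which rose in normoxia (log2FC 1.51, adjusted p 0.0245) and had a log2FC of −0.70 in hypoxia, to BHLHE40 (−2.33 and −0.29), to CXCL8 (2.23 and 4.64) and to TRMT12 (−0.72 and −2.55). In GJB2 the H libraries stood at 76.4 and 87.7 CPM against 7.86 and 5.27 CPM in N.

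**Figure D5:**
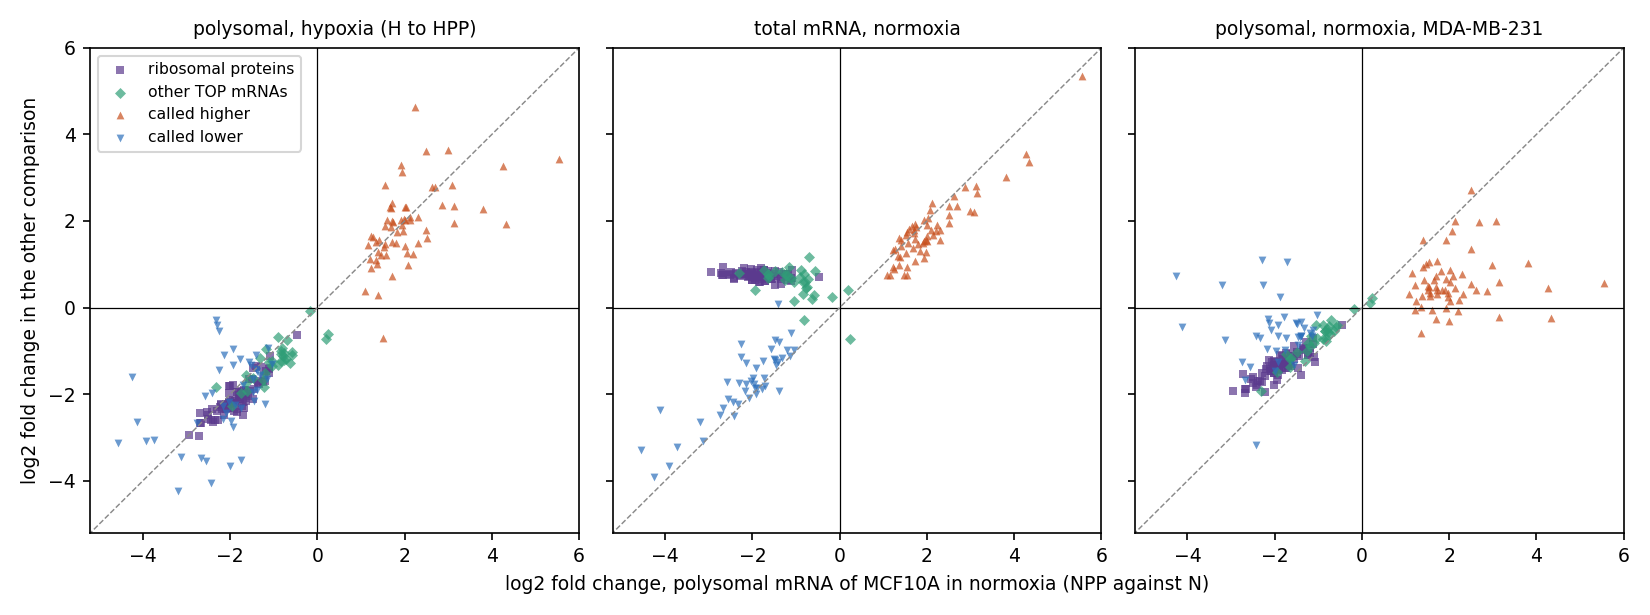
Log2FC of NPP against N in polysomal mRNA of MCF10A (x axis) against the log2FC in 3 other comparisons (y axis), for the 62 genes called higher, the 46 called lower, 79 ribosomal protein and 32 other TOP mRNAs. The dashed line marks equal values. Called genes, chosen by their x values, lie along the line in hypoxia and in total mRNA and have medians of 0.48 and −0.64 in MDA-MB-231, whereas ribosomal protein mRNAs lie above 0 in total mRNA and below 0 in both other panels.

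In MDA-MB-231, fitted on its own 16 libraries, PP242 in normoxia changed 264 of 13510 polysomal genes (1.95%). Ribosomal protein mRNAs had a median log2FC of −1.32 and 76 of 79 fell, and the other TOP mRNAs one of −0.67 with 14 of 32 falling. RPL12 had a log2FC of −1.93 (adjusted p 0.000129) and TPT1 one of −1.93 (adjusted p 5.28e-05). In the joint fit of both lines the same comparison gave 9 calls among 14298 genes. The genes that follow were selected by their calls in MCF10A, so smaller values in another line are expected from that choice alone. Of 60 increases tested in both lines 51 were positive in MDA-MB-231, against 49.3% of all tested genes, and 9 were called, with a median of 0.48. Of 40 decreases 34 were negative, against 50.6%, and 11 were called, with a median of −0.64. HBP1 (log2FC 1.97, adjusted p 0.00062), CCNG2 (log2FC 2.71, adjusted p 7.29e-05), ID3 (log2FC −3.16, adjusted p 3.58e-06), AEN (log2FC −1.68, adjusted p 0.00396) and RRS1 (log2FC −1.47, adjusted p 0.000474) were called in MCF10A and in the separate fit of MDA-MB-231.

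The difference between lines was tested in a joint fit of all 32 libraries. It was called in 18 of 14298 genes (0.126%), 9 with a more positive and 9 with a more negative effect in MCF10A. RGCC (difference 4.96, adjusted p 0.00257), ID2 (−3.74, adjusted p 0.00257), APLN, the peptide ligand apelin (−3.73, adjusted p 0.00257), and HAS2 (3.30, adjusted p 0.00307) had the smallest p. ID2 stood at 42.5 and 23.3 CPM in N of MCF10A and at 0.654 and 0.454 CPM in N of MDA-MB-231, where NPP gave 0.917 and 0.670 CPM. The difference was not called for ID1 (−1.22), ID3 (0.69), HBP1 (0.69) or CCNG2 (−0.24). For ribosomal proteins its median was −0.55 and for the other TOP mRNAs −0.33, with none called in either list.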

How the data were processed

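RNA was sequenced after poly(A) selection without strand information, so overlapping and antisense genes cannot be told apart. The authors used STAR v2.5.1b for alignment (GRCh38), GENCODE v24 as annotation and RSEM v1.2.28 for quantification, whereas the submitters' processing notes name GRCh37 instead. Per the file headers the deposited values are expected counts per gene, which were whole numbers. RSEM divides reads among near-identical genes, so ribosomal protein genes and histones are uncertain. Columns were matched to samples by the barcode in the labels, and protein-coding genes were taken from the class named in each row.

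edgeR 4.0.16 (R 4.3.3) was used with TMM scaling, filterByExpr and the quasi-likelihood test on the 16 MCF10A libraries, with 1 coefficient for each of 8 groups, so that all groups share an estimate of the spread. The polysomal, total, hypoxic and fraction or oxygen difference contrasts came from this fit. MDA-MB-231 was fitted alone and, for the difference between lines, jointly. SE is the log2FC divided by the root of the F statistic. The edgeR test was also run on simulated counts in which 200 genes differed by 4-fold or 8-fold. It called 161 genes, of which 6 were unchanged. These counts were drawn independently, without the differences between replicates by transcript length described above, so the simulation does not cover those. Depth was 35834206 to 46032327 counts in the 4 libraries. Replicates are numbered in the labels, and p-values rest on the spread pooled over the groups of a fit and over genes.

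The genes named are the 12 largest changes each way among called genes with a mean of at least 1 CPM and groups that do not overlap. To these were added up to 4 called members of each list by adjusted p or, with none called, the 2 members with the largest log2FC, and the 4 smallest p of each difference. Further genes named to complete a count (CITED2, SMAD7 and NOG), and CHP1, were chosen after their values were seen. Some genes that this rule names are not reported here. The members and lists were chosen with earlier results of these data known. Alternatives were library totals, other scaling factors, filters, DESeq2 1.42.0, a replicate block, a transcript length offset, thinning and leaving out each library. Start sequences came from RefSeq (GRCh38.p14), and transcript lengths and gene positions from GENCODE v44.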

Additional observations from a re-analysis of the deposited data

Results flagged for a closer look

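The following genes are listed because their response to PP242 in normoxic polysomal mRNA differed between MCF10A and MDA-MB-231, in the test of the difference itself in the joint edgeR fit. The response was more positive in MCF10A, by log2 differences of 4.96 for RGCC, 3.79 for HES2, 3.30 for HAS2, 2.73 for TXNIP, 2.26 for TRIB1 and 2.19 for CD55. It was more negative in MCF10A by log2 differences of −4.74 for SAMD11, −3.74 for ID2, −3.73 for APLN and −2.42 for SMAD6. SAMD11 and ID2 were nearly absent from MDA-MB-231. SAMD11 had 0.154 and 0.0284 CPM in N and 0.204 and 0.134 CPM in NPP of that line and did not pass its own filter, and ID2 had 0.454 to 0.917 CPM, so a decrease there could hardly be measured. TXNIP had a log2FC of 3.80 in MCF10A. In MDA-MB-231 its log2FC was 1.05 in the joint edgeR fit (adjusted p 0.389) and 1.03 in the separate fit of that line (adjusted p 0.00476).

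Non-coding genes were not part of the comparison of protein-coding genes. In an edgeR fit of all gene classes, 3 of 3586 non-coding genes rose and 1 fell at an adjusted p under 0.05. That fit tested 16723 genes of all classes and called 95, 58 higher and 37 lower. The antisense gene RP11-326K13.4 had 0.787 and 0.849 CPM in N and 3.27 and 2.89 CPM in NPP (log2FC 1.91). RP11-59D5__B.2, also antisense, had 0.107 and 0.269 CPM against 1.00 and 2.25 CPM (log2FC 3.03). OSER1-AS1 had 1.72 and 1.49 CPM against 6.89 and 9.66 CPM (log2FC 2.37). Without strand information, reads of these genes and of the genes opposite to them cannot be told apart.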

How the results depend on the processing

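The number of genes called differed between settings. The normoxic polysomal comparison gave 62 increases and 46 decreases, and in all 665 calls with DESeq2 (318 higher, 347 lower), 750 with the length offset, 666 with the replicate block within each fraction and 318 at an adjusted p under 0.10. Leaving out 1 library gave 8 to 20. The hypoxic comparison gave 853, then 1578, 1926, 1951 and 1411 under the same 4 settings, 38 from its own 4 libraries and 131 to 442 with 1 library left out. The difference between lines gave 18, then 57, 46, 42 and 28, 2 from the 8 libraries compared and 3 to 20 with 1 left out. The difference between fractions gave 0, and 94 with DESeq2 and 36 with the length offset. The difference between normoxia and hypoxia gave 0, and 19 with DESeq2. The causes were not tested. Scaling by library totals called 118 genes (81 higher, 37 lower), 66 of them shared, and moved the median log2FC of all genes from −0.04 to 0.11. Deviations of same-numbered polysomal libraries of MCF10A correlated at 0.058 between N and NPP, 0.635 between N and H and 0.481 between H and HPP, but at −0.064 between NPP and H. In total mRNA all 6 pairs were positive, from 0.283 to 0.778, and N polysomal with NPP total libraries correlated at −0.641. Numbers thus share structure in some pairs, and the labels do not say what a number marks. A single replicate block gave 123 calls. The replicate block within each fraction called 60 of 79 ribosomal protein and 10 of 32 other TOP mRNAs, which the fit without it did not call. The median of ribosomal proteins (−1.84) lay between −2.30 and −1.19 and that of other TOP mRNAs (−0.90) between −1.18 and −0.67 with 1 library left out. Of the values for single genes under an alternative, 1077 kept direction and side of the threshold, 83 passed it newly, 162 no longer passed it, and 2 lost their direction. MT-ND5 changed sign, to −0.37 without NPP replicate 2 (1.17 without NPP replicate 1), and HIST1H2AD went to 0 without N replicate 2 (−3.67 without N replicate 1). Thinning every library to the smallest one gave 841 calls in the hypoxic comparison, 12 for the difference between lines and a ribosomal protein median of −1.84.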

Other observations

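Other called genes are given here as values, chosen after these were seen and with no theme tested. AREG, an EGF receptor ligand, rose from 302 and 289 CPM in N to 1122 and 1135 CPM in NPP (log2FC 1.93 in edgeR). ERRFI1, which inhibits the EGF receptor, rose with a log2FC of 1.72, and CBLB, a ubiquitin ligase for receptor kinases, with 2.296. The ubiquitin ligase NEDD4L rose with 1.97, the kinase PIM1 with 2.12, and JUP, plakoglobin of desmosomes, with 2.13. Among the decreases were CDC25A, a phosphatase that activates cyclin-dependent kinases (log2FC −1.93), AMD1 of polyamine synthesis (−1.97), IGFBP3 (−1.78), PMEPA1, an inhibitor of TGF-β signalling (−2.09), WNT7B (−2.16), GATA2 (−2.16) and HOXC13 (−2.02).

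Among non-coding genes, MIR22HG fell from 34.3 and 23.8 CPM to 7.67 and 8.03 CPM (log2FC −1.89). The snoRNA host genes ZFAS1 (log2FC −1.01, adjusted p 0.606) and GAS5 (log2FC −0.52), whose spliced RNAs are known to begin with a TOP tract, were not called. Further non-coding genes not called were SNHG5 (log2FC −0.72), SNHG8 (−0.36), SNHG1 (−0.34), SNHG6 (−0.05) and EPB41L4A-AS1 (0.06).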
